A study of Homo sapiens with 10 samples.

Results

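Ribosome biogenesis factors are the nucleolar proteins that transcribe ribosomal RNA, modify it, cut it and fold it into the precursors of the small and large ribosomal subunits. RNA polymerase I makes the long precursor transcript, small nucleolar ribonucleoproteins (snoRNPs) guide its chemical modification, and assembly factors then bind it in turn until each subunit leaves for the cytoplasm. All of these proteins are themselves made from ordinary capped mRNAs. The eIF4F complex binds the cap, and its RNA helicase eIF4A unwinds the 5' leader for the small ribosomal subunit that scans it. Rocaglates are plant-derived inhibitors that clamp eIF4A onto RNA, with a known preference for runs of purines.

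The mRNAs of 41 such genes were followed here, taken by symbol from 39472 symbols in the count files. They fall into 7 groups by role: 3 RNA polymerase I genes, 3 associated nucleolar proteins, 3 box C/D and 4 box H/ACA snoRNP core proteins, 13 early and 3 late small subunit factors, and 12 large subunit factors. Each gene has counts for its 5' leader, its coding sequence (CDS) and its 3'UTR, which makes 123 features.

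The study tested which RNAs eIF4A contacts when rocaglates are present. HEK 293T cells, a human embryonic kidney line, carried FLAG-tagged eIF4A in every group. They were treated for 1 h with 20 nM silvestrol (3 libraries), 20 nM CR-1-31-B, a synthetic rocaglate (3 libraries), or the DMSO vehicle (3 libraries), crosslinked with 254 nm light at 400 mJ/cm2, and taken through eCLIP, which sequences the RNA crosslinked to an immunoprecipitated protein. A single input library, numbered 2, had no antibody step. Which eIF4A paralog carried the tag, whether the line was 1 clone, and whether the numbered libraries came from separate cultures are not given in the sources used here, so p-values measure the spread between these libraries, which may be technical. RNA levels were not measured after each treatment, so a change in eIF4A contact and a change in the amount of an mRNA cannot be told apart.

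The libraries held between 858733 and 1804732 counts under silvestrol, 915817 to 1610372 under CR-1-31-B, 943310 to 1074588 under DMSO and 2193699 in the input. The 41 genes took 0.425%, 0.233% and 0.328% of the counts of silvestrol libraries 1, 2 and 3. Under CR-1-31-B the shares were 0.431%, 0.314% and 0.351%, under DMSO 0.451%, 0.283% and 0.364%, and in the input 0.278%. Library 1 was the highest and library 2 the lowest in each of the 3 groups. Same-numbered libraries also deviated together over all features, and results are therefore given without and, where the call changes, with the library number as a block. The DMSO libraries are common to both drug comparisons.

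**Figure D1:**
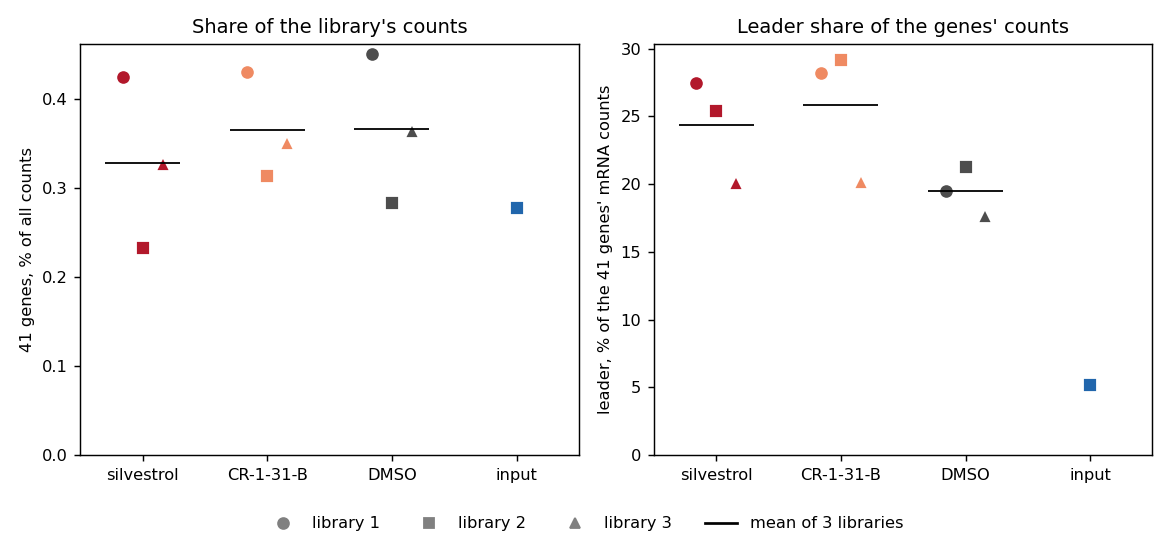
Left, the percentage of each library's counts that fell in the 41 genes; right, the percentage of the 41 genes' leader, CDS and 3'UTR counts that fell in leaders; points are libraries, marker shapes are library numbers and lines are means of 3 libraries. On the left the library number orders the points in every group, and on the right the silvestrol and CR-1-31-B means (24.3% and 25.8%) lie above the DMSO mean (19.5%), with the input at 5.18%.

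Leader sequences from both ends of the order of fold changes are shown first, as the stretch around the longest run of purines, because purine runs are the known RNA preference of the rocaglate clamp. They come from GENCODE v29 transcripts on GRCh38, 5′ to 3′ on the coding strand, with the longest purine run in capitals. Each window lies in the GENCODE 5'UTR within 1 exon. RefSeq start sites, used further below, differ for most of these genes. By those starts the runs of UTP3, NOP56, UBTF, NOP16, UTP6, TSR1 and NHP2 lie upstream of the first transcribed base. LTV1's run lies downstream of it, and no RefSeq start was found for RRP1B. Which start sites the counted leaders used is not given. No windows are printed for RRS1 and BOP1, whose leaders had log2 fold changes of 1.76 and -0.84 for both compounds against DMSO. The GENCODE leader of RRS1 has 104 bases and a longest purine run of 8. Among the leaders with the highest fold changes when both compounds were set against DMSO, the UTP3 window lies at chr4:70688506-70688535 (+), NOP56 at chr20:2652447-2652476 (+), UBTF at chr17:44221566-44221595 (-), NOP16 at chr5:176388783-176388812 (-) and UTP6 at chr17:31901736-31901765 (-).
UTP3: gggggccGGAAGGAAGAGGAAAttccagta
NOP56: ctgcagaggccGGAAAAGGcccgctcgccc
UBTF: ggaaagacgcAGGAGAGAAGcaggaggcag
NOP16: ccacagcagcAGGAGAAAAtcgggactccg
UTP6: GGAAAAGGcgggacctagggagcacgttac

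Among the leaders with the lowest fold changes, the windows lie at chr17:2336853-2336882 (-) for TSR1, chr21:43659632-43659661 (+) for RRP1B, chr5:178153930-178153959 (-) for NHP2 and chr6:143843373-143843402 (+) for LTV1.
TSR1: gggaatcGAGGGAGAAGAAAGGttgctcag
RRP1B: ggttgcgcggccGGGGAtgctccagcgggc
NHP2: ttgggctgagtcGGAGActtcctttcctga
LTV1: ggtgaggcctacAGAAGcggccttcagctg

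The longest run spanned 15 bases in UTP3, the leader with the highest fold change, and also 15 bases in TSR1, the leader with the lowest. NHP2, RRP1B and LTV1 had longest runs of 5 bases, and the other high leaders printed had runs of 8 to 10. A long run was found at both ends of the order, but in leaders of unlike length. TSR1's annotated leader has 1080 bases, the longest of 29 tested members, and UTP3's has 199. GAR1 had a run of 13 bases in a leader of 264 bases with a log2 fold change of 0.15. NOP56 had a run of 8 in 516 bases. A link between leader length and run length was not tested. In the first 50 bases from the RefSeq start, the longest run was 7 bases in UTP3 and 2 in TSR1. It was 6 in NOP56 and NOP16, 5 in UTP6 and 3 in UBTF, and 4 in NHP2 and LTV1. The run of UBTF, a high leader, was thus shorter than those of NHP2 and LTV1, which are low leaders.

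Values below are counts per 1e6 counts of the features tested in a library (CPM), scaled by trimmed mean of M values (TMM) factors. Of the 123 features, 91 had enough counts to be tested by edgeR's quasi-likelihood test: 30 leaders, all 41 CDS and 20 3'UTRs. The leaders of POLR1A, POLR1B, UTP14A, UTP18, IMP3, MPHOSPH10, RRP9, WDR43, WDR75, BYSL and BRIX1 were not tested. No member feature passed an adjusted p of 0.05 in any comparison without the block. At an unadjusted p under 0.05 there were 4 of 91 features under silvestrol against DMSO (4.4%, and 8.64% of all 22247 features of these classes), 13 under CR-1-31-B against DMSO (14.3% and 9.41%), 10 for both compounds together (11.0% and 10.7%), and 2 between CR-1-31-B and silvestrol (2.2% and 2.54%). Among all leaders tested, 0.857% were called higher under silvestrol, 0.8% under CR-1-31-B and 1.39% under both compounds against DMSO; for CDS the percentages were 0.0119, 0.155 and 0.226. Called lower for both compounds were 0.0149% of 3'UTRs. In simulated counts the same test recovered 73, 77 and 87 of 100 leaders changed 4-fold under silvestrol, under CR-1-31-B and for both compounds. Of those changed 2-fold it recovered 4, 6 and 8 of 100, so 2-fold changes were mostly not detectable with these libraries. Only leaders above a count minimum were changed. The member leaders tested had a median of 192 counts, under that minimum, and a lowest of 92. The 20 3'UTRs had a median of 173 and a lowest of 62. Recovery at such counts was not simulated.

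With the library number as a block, 3 member features rose under CR-1-31-B against DMSO: the UTP3 leader, the RRS1 CDS and the UBTF leader. The UTP3 leader and the RRS1 CDS also rose with both compounds together, and no member feature was called under silvestrol alone. Among 9 fits that each left out 1 library, the combined UTP3 call held in 6; the adjusted p was 0.302 without DMSO library 1, 0.14 without DMSO library 2 and 0.136 without silvestrol library 1. The combined RRS1 call held in 5 of 9; leaving out DMSO library 1, 2 or 3 gave an adjusted p of 0.245, 0.0758 or 0.0544, and leaving out silvestrol library 1 gave 0.0748. In that fit 3.59% of all leaders and 0.998% of all CDS were called higher under CR-1-31-B, 5.38% and 0.903% under both compounds, and 3.71% and 0.452% under silvestrol. Called higher 3'UTRs made up 0.0745% of those tested under CR-1-31-B and 0.0298% under silvestrol, and called lower features 0.0562% of leaders and 0.0713% of CDS under CR-1-31-B and 0.0475% of CDS under silvestrol. For both compounds, 0.0842% of leaders and 0.119% of 3'UTRs were called lower. The members' shares, 2 of 30 leaders and 1 of 41 CDS under CR-1-31-B, were near those backgrounds. DESeq2, run without the block, called the UTP3 leader and the RRS1 CDS in the same comparisons and no others, and limma voom called none.

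UTP3, also known as SAS10, is a component of the small subunit processome, the large particle that forms on the nascent precursor. Its leader had 49.4, 6.82 and 16.6 CPM in silvestrol libraries 1 to 3, 80.0, 39.8 and 56.8 CPM under CR-1-31-B and 10.8, 2.12 and 13.7 CPM in DMSO libraries, with 0.912 CPM in the input. All 3 CR-1-31-B libraries lay above all 3 DMSO libraries, while silvestrol library 2 fell within the DMSO range. Here and below, the share of all features with such an arrangement for a single compound was not counted, so it is a description only. The log2 fold change was 2.72 ± 0.65 (SE) under CR-1-31-B against DMSO (adjusted p = 0.0726) and 2.86 with the block (adjusted p = 0.00496). Under silvestrol against DMSO it was 1.5 ± 0.65 (adjusted p = 0.533), and 1.35 with the block (adjusted p = 0.299); without the block and without silvestrol library 1 it was 0.38. With both compounds together it was 2.11 ± 0.60 (adjusted p = 0.123), and 2.11 with the block (adjusted p = 0.0204). The blocked call under CR-1-31-B held in 7 of 9 fits that each left out 1 library, with log2 fold changes of 2.5 to 3.52, and was lost without DMSO library 1 or DMSO library 2 (adjusted p up to 0.113). UTP3's CDS had 45.2, 19.3 and 33.1 CPM under silvestrol, 40.3, 44.1 and 24.3 under CR-1-31-B and 20.6, 7.43 and 26.3 under DMSO, groups that overlapped; its 3'UTR was not tested.

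RRS1, a large subunit assembly factor that in yeast acts with Rpf2, was the only member with a called CDS in these fits. The RRS1 CDS had 119, 21.6 and 44.6 CPM under silvestrol, 133, 85.6 and 78.8 CPM under CR-1-31-B and 28.4, 18.0 and 22.9 CPM under DMSO, with 11.9 CPM in the input. Every CR-1-31-B library exceeded every DMSO library, and silvestrol library 2 again lay within the DMSO range. The log2 fold change under CR-1-31-B was 2.10 ± 0.50 (adjusted p = 0.0704), and 2.11 with the block (adjusted p = 0.00522). Both compounds together gave 1.77 ± 0.45 (adjusted p = 0.0834), and 1.67 with the block (adjusted p = 0.0119). Silvestrol alone gave 1.44 ± 0.49 (adjusted p = 0.329), and 0.50 without silvestrol library 1. The blocked CR-1-31-B call was lost without DMSO library 1 or CR-1-31-B library 2 (adjusted p up to 0.117) and held in the other 7 of 9 fits.

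RRS1's leader pointed the same way with fewer counts. It had 24.7, 9.10 and 10.2 CPM under silvestrol, 21.8, 12.1 and 37.1 CPM under CR-1-31-B and 12.7, 0 and 3.43 CPM under DMSO, where the 0 allows up to 3.18 CPM (3 counts). DMSO library 1 overlapped both drug groups, and the fold change under CR-1-31-B (2.07 ± 0.83, adjusted p = 0.407) was not called. The RRS1 3'UTR had a fold change of 0.44 ± 0.75 for both compounds and overlapping groups. An annotated transcript on the same strand, AC009879.2, overlaps RRS1, and reads of the 2 genes may not be separable. UTP3 and RRS1 are the only members with a single exon in GENCODE v29. Over all genes tested, single-exon genes had a median CDS log2 fold change of 0.44 for both compounds against DMSO (189 genes), against -0.09 in genes with more exons (8056 genes). For leaders the medians were 0.59 (130 genes) and 0.37 (6833 genes). A link between exon number and the values of UTP3 and RRS1 was not tested.

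UBTF is the upstream binding factor that opens ribosomal DNA for RNA polymerase I. Its leader had 179, 34.1 and 115 CPM under silvestrol, 216, 116 and 121 CPM under CR-1-31-B, 54.8, 39.3 and 75.6 CPM under DMSO and 9.12 CPM in the input. The CR-1-31-B libraries were all above the DMSO libraries, and the silvestrol libraries straddled them. Under CR-1-31-B the log2 fold change was 1.42 ± 0.46 (adjusted p = 0.248), and 1.41 with the block (adjusted p = 0.0400); that call held in 3 of 9 fits that each left out 1 library, those without silvestrol library 1, silvestrol library 2 or CR-1-31-B library 3, and the adjusted p reached 0.402 elsewhere. Silvestrol gave 0.96 ± 0.46 (adjusted p = 0.614). UBTF's CDS, at 53.6, 0 and 47.1 CPM under silvestrol, 43.0, 31.1 and 32.4 under CR-1-31-B and 53.8, 36.1 and 40.1 under DMSO, overlapped between groups; the 0 allows up to 3.41 CPM. Antisense transcripts (AC003102.1 and AC004596.1) overlap UBTF exons, and whether counting used the strand is not given in the sources used here. The other RNA polymerase I genes, POLR1A and POLR1B for the large catalytic subunits, had CDS fold changes for both compounds of -0.60 and 0.04 (log2), neither called. The POLR1A 3'UTR, one of the best measured with 605 counts, had 67.5, 46.6 and 56.1 CPM under silvestrol, 46.3, 81.3 and 79.9 CPM under CR-1-31-B and 69.5, 35.0 and 81.3 CPM under DMSO. Its groups overlapped.

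**Figure D2:**
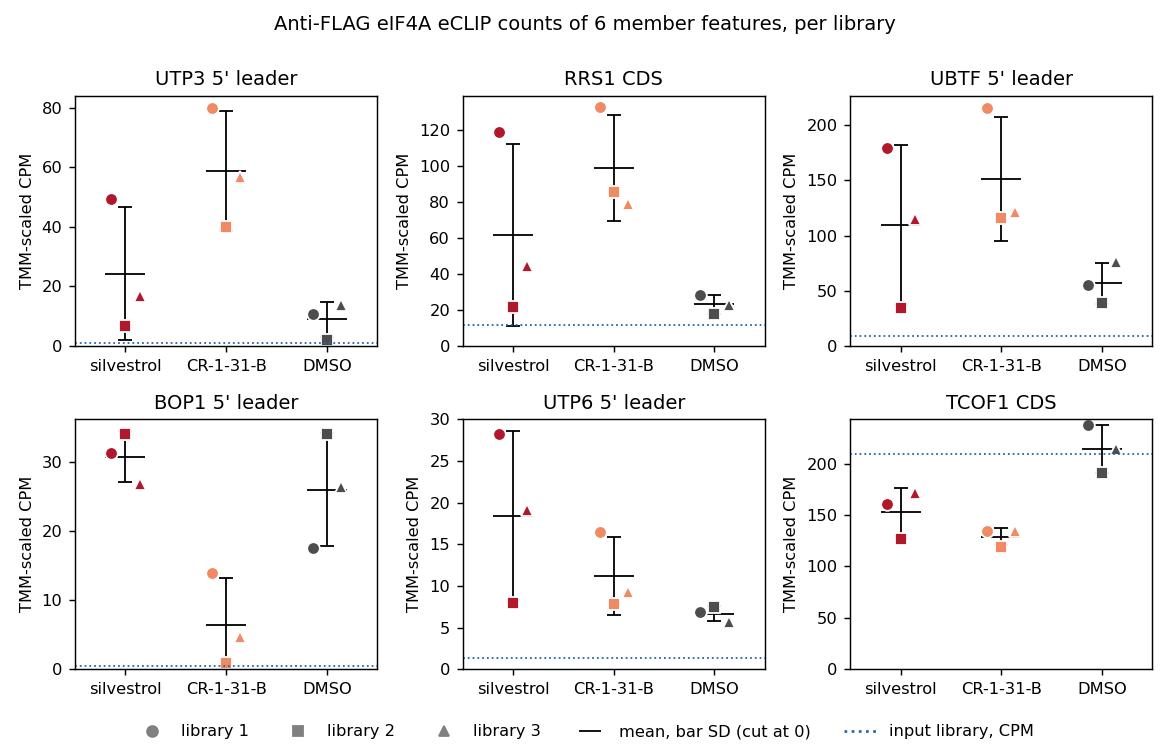
CPM of 6 member features in each anti-FLAG library, with silvestrol, CR-1-31-B and DMSO from left to right; marker shapes are library numbers, bars are the mean and SD of 3 libraries cut at 0, and the dotted line is the input library's CPM of all its counts. The CR-1-31-B points of the UTP3 leader (39.8 to 80.0 CPM), the RRS1 CDS and the UBTF leader stand above all DMSO points, while those of the BOP1 leader (0.865 to 13.9 CPM) stand below all DMSO points. The share of all features with such an arrangement for CR-1-31-B alone was not counted.

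The snoRNP core proteins showed no called change. In box C/D snoRNPs, which guide ribose methylation, the leaders of FBL (the methyltransferase) and of the scaffold proteins NOP56 and NOP58 had log2 fold changes of 0.30, 1.32 and 0.20 for both compounds against DMSO, and their CDS had -0.08, -0.23 and -0.46. The NOP56 leader had 24.7, 0 and 6.37 CPM under silvestrol, 21.8, 28.5 and 18.5 CPM under CR-1-31-B and 5.87, 8.49 and 4.58 CPM under DMSO. Its CR-1-31-B libraries all lay above its DMSO libraries, whereas silvestrol ran from below to above them; the fold change was 1.84 ± 0.85 under CR-1-31-B (adjusted p = 0.529). Several snoRNA genes overlap annotated NOP56 transcripts on the same strand, so its counts are uncertain. The same limit holds for DKC1 (SNORA36A and SNORA56) and GNL3 (SNORD19B), whose values are given below. The FBL CDS, with 2391 counts over the 9 anti-FLAG libraries, had 274, 150 and 215 CPM under silvestrol, 285, 285 and 200 CPM under CR-1-31-B and 236, 274 and 231 CPM under DMSO, with overlapping groups. Its fold change under CR-1-31-B was 0.06 with a 95% interval of -0.63 to 0.75.

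In box H/ACA snoRNPs, which guide pseudouridylation, the leader of the pseudouridine synthase DKC1 had 53.0, 70.5 and 34.4 CPM under silvestrol, 68.1, 75.3 and 45.2 CPM under CR-1-31-B and 50.9, 23.4 and 25.2 CPM under DMSO. Each drug library exceeded the same-numbered DMSO library, but the groups overlapped and the fold change for both compounds, 0.79 ± 0.38, was not called (adjusted p = 0.496). The leader of NHP2, a core RNA-binding subunit, leaned the other way, with 37.3, 20.5 and 22.9 CPM under silvestrol, 25.1, 17.3 and 23.2 CPM under CR-1-31-B and 55.8, 38.2 and 29.8 CPM under DMSO. All 3 CR-1-31-B libraries were below all DMSO libraries, with a fold change of -0.91 ± 0.46 (adjusted p = 0.599). The DKC1 3'UTR, among the 3 lowest 3'UTRs, had 10.2, 15.9 and 20.4 CPM under silvestrol, 9.92, 13.8 and 8.11 CPM under CR-1-31-B and 29.4, 10.6 and 35.5 CPM under DMSO, which overlapped. GAR1 and NOP10, the remaining core subunits, had leader fold changes of 0.15 and 0.59 for both compounds, each with an SE of at least 0.59.

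No feature of the associated nucleolar proteins was called. The NCL (nucleolin) leader, with 1189 counts, had 155, 93.3 and 89.2 CPM under silvestrol, 164, 107 and 62.6 CPM under CR-1-31-B and 170, 116 and 80.1 CPM under DMSO. Its groups overlapped, with fold changes of -0.11 under silvestrol (95% interval -0.93 to 0.71) and -0.13 under CR-1-31-B (-0.95 to 0.69). The NCL CDS, with 2652 counts, had 288, 172 and 307 CPM under silvestrol, 272, 184 and 273 CPM under CR-1-31-B and 405, 230 and 332 CPM under DMSO, which again overlapped. The CDS of TCOF1, the treacle protein that supports ribosomal DNA transcription, had 161, 127 and 171 CPM under silvestrol, 134, 119 and 134 CPM under CR-1-31-B and 237, 191 and 214 CPM under DMSO. All 6 drug libraries lay below all 3 DMSO libraries. TCOF1 was the only CDS of 41 with that arrangement (2.4%, and 2.92% of all CDS tested); its fold change of -0.61 ± 0.27 was not called (adjusted p = 0.445). NOLC1, a snoRNP chaperone, had fold changes of 0.47 in its leader and -0.26 in its CDS.

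Among early small subunit factors, UTP6 was the only leader of 30 with all 6 drug libraries above all 3 DMSO libraries (3.3%, and 8.4% of all leaders tested). The UTP6 leader had 28.3, 7.96 and 19.1 CPM under silvestrol, 16.5, 7.78 and 9.27 CPM under CR-1-31-B and 6.85, 7.43 and 5.72 CPM under DMSO. The lowest drug library exceeded the highest DMSO library by less than 1 CPM, and the fold change for both compounds was 1.11 ± 0.65 (adjusted p = 0.611). The UTP20 leader had 28.3, 12.5 and 7.64 CPM under silvestrol, 17.2, 10.4 and 3.48 CPM under CR-1-31-B and 13.7, 2.12 and 3.43 CPM under DMSO, with overlapping groups. Drug values exceeded those of the same-numbered DMSO library. In CR-1-31-B library 3 and DMSO library 3, however, both values stood for 3 counts and differed by scaling alone. The leaders of UTP15, NOP14 and IMP4 had fold changes of 0.26, 0.15 and -0.13 for both compounds. The CDS of the 13 genes ranged from -0.83 for RRP9, a protein of the U3 snoRNP, to 0.93 for UTP3, with a median of -0.27. The RRP9 CDS had 40.4, 10.2 and 29.3 CPM under silvestrol, 21.8, 10.4 and 17.4 CPM under CR-1-31-B and 47.0, 26.5 and 40.1 CPM under DMSO. Every CR-1-31-B library was below every DMSO library, without a call (adjusted p = 0.507). The NOP14 and UTP15 3'UTRs had the highest 3'UTR fold changes for both compounds, 0.61 ± 0.81 and 0.60 ± 0.53, both within about 1 SE of 0.

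Late small subunit factors act on the precursor that is exported to the cytoplasm, and among them TSR1, a GTPase-like factor, had the lowest leader fold change of the 30 for both compounds together, -1.06 ± 0.64 (adjusted p = 0.623). Its leader had 14.5, 11.4 and 14.0 CPM under silvestrol, 7.27, 0.865 and 5.79 CPM under CR-1-31-B and 19.6, 22.3 and 8.01 CPM under DMSO. The CR-1-31-B libraries were below every silvestrol and DMSO library. The fold change under CR-1-31-B was -1.81 ± 0.79 (adjusted p = 0.488). The TSR1 3'UTR was low in the same libraries, with 11.4, 9.10 and 14.0 CPM under silvestrol, 3.97, 1.73 and 9.27 CPM under CR-1-31-B and 11.7, 29.7 and 19.5 CPM under DMSO, and a fold change under CR-1-31-B of -2.05 ± 0.76 (adjusted p = 0.349). Its CDS had -0.54 ± 0.43. SRR and SGSM2 overlap TSR1 exons on the opposite strand. The LTV1 leader had a fold change of -0.17 for both compounds, and the CDS of BYSL and LTV1 had 0.28 and 0.25.

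BOP1, PES1 and WDR12 form the PeBoW complex needed for the large subunit precursor. The BOP1 leader had 31.3, 34.1 and 26.8 CPM under silvestrol, 13.9, 0.865 and 4.63 CPM under CR-1-31-B and 17.6, 34.0 and 26.3 CPM under DMSO. CR-1-31-B libraries lay below all silvestrol and all DMSO libraries, and silvestrol and DMSO overlapped. The fold change was -1.92 ± 0.65 for CR-1-31-B against DMSO (adjusted p = 0.280), and the block did not bring a call (-2.05, adjusted p = 0.143). The BOP1 CDS did not share this order, with 198, 58.0 and 200 CPM under silvestrol, 183, 131 and 219 CPM under CR-1-31-B and 156, 184 and 183 CPM under DMSO. No leader is annotated on the GENCODE transcript of BOP1 used here, so its purine content is not given. PES1 had fold changes for both compounds of 0.27 in the leader and -0.19 in the CDS.

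The WDR12 3'UTR was the only one of 20 with all drug libraries below all DMSO libraries (5.0%, and 3.62% of all 3'UTRs tested). It had 30.7, 35.3 and 29.3 CPM under silvestrol, 23.8, 14.7 and 31.3 CPM under CR-1-31-B and 47.0, 55.2 and 45.8 CPM under DMSO. The fold change for both compounds was -0.86 ± 0.36 (adjusted p = 0.389). CARF and AC010900.1 overlap WDR12 exons on the opposite strand. The WDR12 CDS had 7.83, 0 and 14.0 CPM under silvestrol, 7.93, 13.8 and 8.11 CPM under CR-1-31-B and 23.5, 9.55 and 11.4 CPM under DMSO, with overlap.

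The CDS of BRIX1, a factor of the early large subunit precursor, had 39.8, 3.41 and 30.6 CPM under silvestrol, 21.2, 38.9 and 22 CPM under CR-1-31-B and 6.85, 13.8 and 9.16 CPM under DMSO. The DMSO libraries were below all drug libraries except silvestrol library 2, which was the lowest of the 9. Its fold change for both compounds was 1.39 ± 0.60 (adjusted p = 0.424). The NOP16 leader, with a fold change of 1.17 ± 0.96 for both compounds, had 18.1, 11.4 and 6.37 CPM under silvestrol, 18.5, 0.865 and 6.95 CPM under CR-1-31-B and 6.85, 0 and 6.87 CPM under DMSO, groups that overlapped. RRP1B, a partner of RRP1, had fold changes for both compounds of -0.83 ± 0.46 in its leader and -0.79 ± 0.35 in its CDS, with adjusted p of 0.576 and 0.444. The CDS had 46.4, 23.9 and 30.6 CPM under silvestrol, 56.2, 29.4 and 49.8 CPM under CR-1-31-B and 83.2, 44.6 and 75.6 CPM under DMSO, lower in each drug library than in its same-numbered DMSO library. GNL3 (nucleostemin, a nucleolar GTPase) had fold changes of -0.09 in its leader, -0.39 in its CDS and -1.37 ± 0.92 in its 3'UTR, the last from 62 counts. The RRP1B 3'UTR, the best measured 3'UTR with 675 counts, had 69.3, 23.9 and 68.8 CPM under silvestrol, 56.9, 77.8 and 90.4 CPM under CR-1-31-B and 107, 54.1 and 81.3 CPM under DMSO, which overlapped. EBNA1BP2, NIP7, NOP2 and RRP1, further assembly factors, had leader fold changes of 0.14, 0.32, 0.58 and 0.41.

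**Figure D3:**
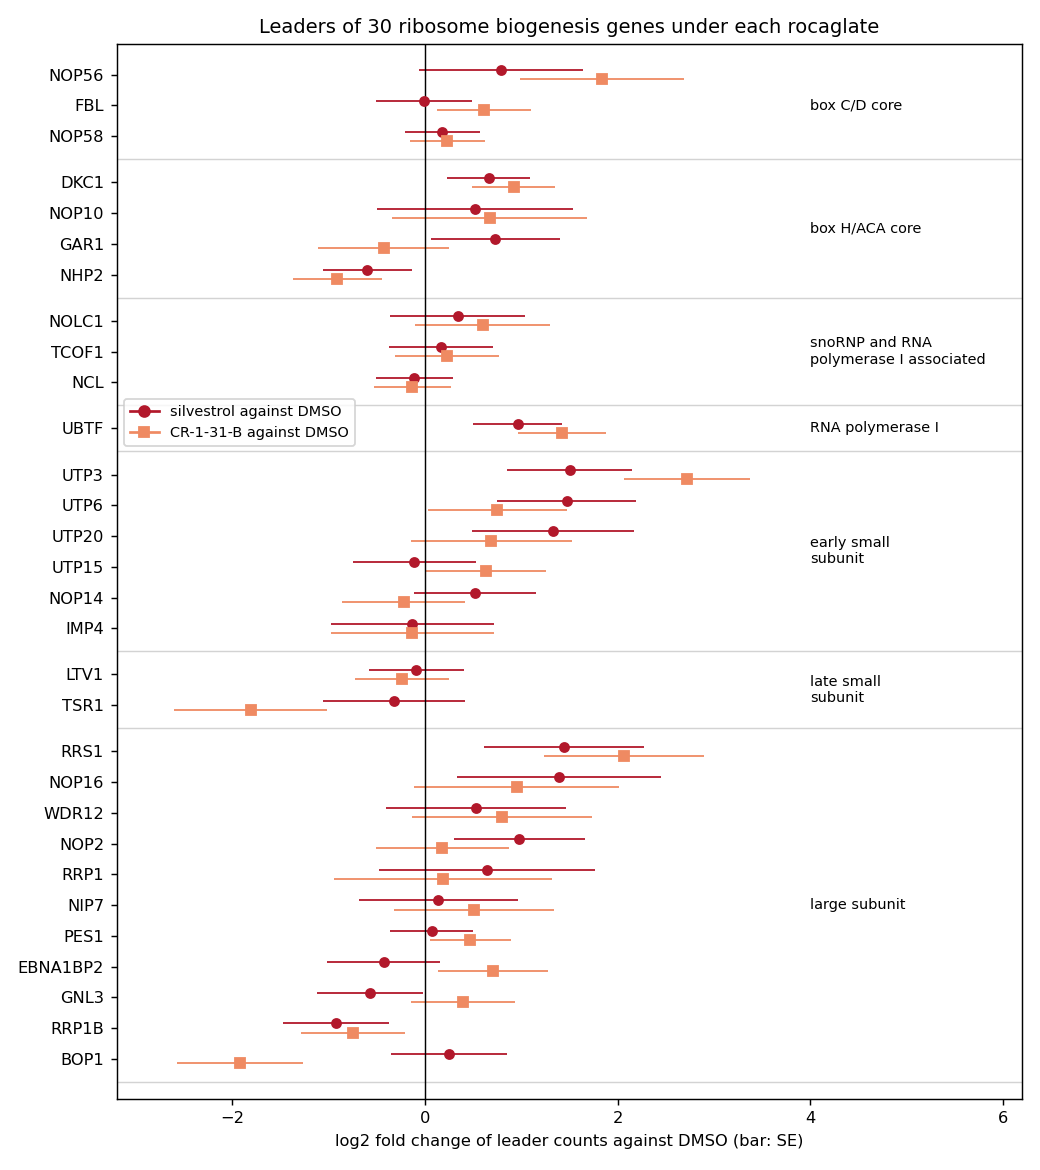
Log2 fold change of leader counts against DMSO for the 30 member leaders tested, grouped by role, with circles for silvestrol, squares for CR-1-31-B and bars for 1 SE. UTP3 under CR-1-31-B (2.72) lies farthest to the right and BOP1 under CR-1-31-B (-1.92) farthest to the left; 20 of 30 leaders lie above 0 under silvestrol and 21 under CR-1-31-B.

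As a group, the member leaders leaned upwards about as far as all leaders did. Their median log2 fold change was 0.29 under silvestrol (0.40 over all 7122 leaders), 0.49 under CR-1-31-B (0.35) and 0.28 for both compounds against DMSO (0.36). Of the 30, 20 were above 0 under silvestrol, 21 under CR-1-31-B and 22 for both compounds (73.3%, and 69.8% of all leaders). The silvestrol median changed sign to -0.17 without silvestrol library 1. CDS medians were -0.26, -0.13 and -0.23 in the same order of comparisons, with -0.12, -0.03 and -0.09 over all CDS. The 3'UTR medians were -0.24, -0.17 and -0.15, with -0.26, -0.27 and -0.27 over all 3'UTRs.

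Summed over the 41 genes, leaders had 888.8 ± 332 CPM under silvestrol, 1019 ± 272 CPM under CR-1-31-B and 768.9 ± 134 CPM under DMSO (SD, n = 3 each). CDS had 2253 ± 657, 2407 ± 403 and 2605 ± 512 CPM in the same groups, and 3'UTRs had 480.4 ± 39.9, 501.6 ± 105 and 592.5 ± 135 CPM. The groups overlapped in each class. Set against its same-numbered DMSO library, the summed CDS was lower in 6 of 6 drug libraries, by 0.05 to 0.45 on the log2 scale, where all genes' CDS ran from -0.20 to 0.02. The summed 3'UTRs were lower in 6 of 6 as well, by 0.01 to 0.57 (-0.61 to -0.24 for all genes), and the summed leaders were higher in 5 of 6, with log2 ratios of -0.03 to 0.56 (0.11 to 0.61 for all genes).

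Where in a gene the counts fell showed the same lean. Leaders held 27.5%, 25.4% and 20.1% of the 41 genes' mRNA counts in silvestrol libraries 1 to 3, 28.2%, 29.1% and 20.2% in CR-1-31-B libraries and 19.5%, 21.3% and 17.7% in DMSO libraries. Each drug library exceeded its same-numbered DMSO library, and library 3 of each drug lay within the DMSO range. Over all genes the shares were higher, at 36.2% to 40.3% under silvestrol, 29% to 41.4% under CR-1-31-B and 25.9% to 30% under DMSO.

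Gene by gene, UBTF and UTP6 were the only 2 of 41 with a leader share above all DMSO libraries in all 6 drug libraries, where 6.85% of 8322 genes with a tested CDS had that arrangement. With DKC1 and UTP20, 4 of 41 were above the same-numbered DMSO library in 6 of 6, against 13.5% of those genes. Some of these margins were narrow. UTP20 had 6.5% in CR-1-31-B library 3 and 6.2% in DMSO library 3, from 3 leader counts each. UTP6 had 20.0% of 35 counts in silvestrol library 2 and 19.4% of 36 in DMSO library 2. In UBTF leaders held 66.7%, 62.5% and 49.7% of its mRNA counts under silvestrol, 71.6%, 70.9% and 60.8% under CR-1-31-B and 33.1%, 45.1% and 43.7% under DMSO. The log2 ratio of leader to CDS counts in UBTF was higher by 2.63 ± 0.78 under silvestrol against DMSO in limma (adjusted p = 0.0721), and was called with the block (adjusted p = 0.0384); silvestrol library 2, with no UBTF CDS counts, entered through the added 0.5. Without that library the ratio was higher by 1.15 ± 0.52 (adjusted p = 0.382) and, with the block, by 1.06 (adjusted p = 0.320), so the silvestrol call rests on it; the blocked call was also lost without DMSO library 1, DMSO library 2 or CR-1-31-B library 1. Under CR-1-31-B the limma ratio was higher by 1.68 ± 0.78 and was not called without the block (adjusted p = 0.371) or with it (adjusted p = 0.280), except with the block and without silvestrol library 2 (adjusted p = 0.0284). For both compounds the blocked value was 2.15 (adjusted p = 0.0447), and 1.37 (adjusted p = 0.0380) without silvestrol library 2; that call held in 5 of 9 fits and was lost without DMSO library 1, DMSO library 2, CR-1-31-B library 1 or CR-1-31-B library 3 (adjusted p up to 0.509). In edgeR's test UBTF leader use was higher by 0.57 under silvestrol (adjusted p = 1.0). Without the block the ratio test called none of 30 member leaders in any comparison, while 2.08% of all genes were called under silvestrol and 2.84% for both compounds; with it 1 of 30 was called in each, where 3.81% and 4.68% of all genes were. Its member medians were 0.62 under silvestrol (0.55 over all genes), 0.49 under CR-1-31-B (0.36) and 0.60 for both (0.46). edgeR's test of leader use within a gene called no member (0.114%, 0.0649% and 0.162% of all genes in the same 3 comparisons), but in simulated counts it recovered 0 of 93, 1 of 93 and 2 of 91 genes changed 4-fold. The ratio test recovered 5 of 83 under silvestrol, 17 of 82 under CR-1-31-B and 39 of 82 for both compounds.

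The compounds were compared directly at their shared dose and time. No member feature was called between CR-1-31-B and silvestrol by edgeR without or with the block, by DESeq2 or by limma voom, and edgeR without the block called no leader, CDS or 3'UTR of any gene (0.0%); with the block 0.014% of leaders were higher under CR-1-31-B than under silvestrol. UTP3 had the highest leader difference, 1.22 with a 95% interval of 0.01 to 2.43 (unadjusted p = 0.0479), followed by EBNA1BP2 with 1.14 (-0.06 to 2.34). The EBNA1BP2 leader had 102, 56.2 and 38.2 CPM under CR-1-31-B and 53.0, 2.27 and 31.9 CPM under silvestrol, so the difference came largely with silvestrol library 2. BOP1 had the lowest, -2.16 (-3.51 to -0.82; unadjusted p = 0.00285, adjusted p = 1.0), and TSR1 followed with -1.49 (-3.12 to 0.15). For the RRS1 CDS the difference was 0.66 (-0.30 to 1.61) and for the UBTF leader 0.46 (-0.47 to 1.38), intervals that do not show the compounds to act alike. Over the 30 leaders the median difference was 0.11, against -0.05 over all leaders.

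The DMSO libraries were also set against the input, whose treatment is not given in the labels used here, so a difference in treatment and the antibody step cannot be told apart. Of features with at least 10 input counts, 7 leaders had a median DMSO-over-input ratio of 3.66 (2.38 over all 3980 leaders), 39 CDS had 1.08 (0.928) and 21 3'UTRs had 1.30 (1.01). These 7 are of 41 leaders, and the 1 input library gives no replicate check. In all 3 DMSO libraries 4 of the 7 leaders were at least 2-fold above input, with 40.9% of all leaders; for CDS it was 2 of 39 with 4.26%, and for 3'UTRs 0 of 21 with 1.17%. Leaders held 17.7% to 21.3% of the 41 genes' mRNA counts under DMSO and 5.18% in the input.

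Of these 7 leaders UBTF stood highest, at 5.73, 3.78 and 7.67 times the input in DMSO libraries 1 to 3, from 20 input counts. Leaders under 10 input counts were not ranked, which leaves out the leaders rarest in the input. The FBL leader among them, with 8, had 8.45, 13.0 and 9.01 times the input. The NHP2 leader, also among them, held 3.9% of that gene's mRNA counts in the input. In DMSO libraries 1 to 3 it held 40.4%, 24.8% and 20.3%. Of the ranked leaders, LTV1 had 4.10, 1.81 and 4.91 times. GNL3 had 3.69, 4.49 and 4.65 times, from 10 input counts, whose exact interval is 2.19 to 8.38 CPM around 4.56. The NOP58 leader had 4.34, 2.35 and 3.66 times and the NCL leader 5.75, 3.59 and 2.63 times the input. PES1, at 1.75, 1.74 and 1.59 times, and WDR12, at 2.05, 1.02 and 0.969 times, were the lowest of the 7 leaders. Among CDS, NIP7 had 2.46, 5.51 and 2.33 times the input and FBL 2.12, 2.26 and 2.02 times. NHP2 had 1.57, 2.38 and 2.33 times, and the lowest CDS was that of GNL3, at 0.742, 0.552 and 0.608 times, followed by DKC1 at 1.06, 0.563 and 0.615 times. Among features with at least 10 input counts, GNL3 therefore held one of the highest leader ratios together with the lowest CDS ratio. The UBTF 3'UTR had 3.49, 0.660 and 3.42 times and the PES1 3'UTR 1.97, 2.12 and 2.06 times the input, against 0.410, 0 and 0.620 times for NOP14 and 0.567, 0.660 and 1.40 times for TCOF1.

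**Figure D4:**
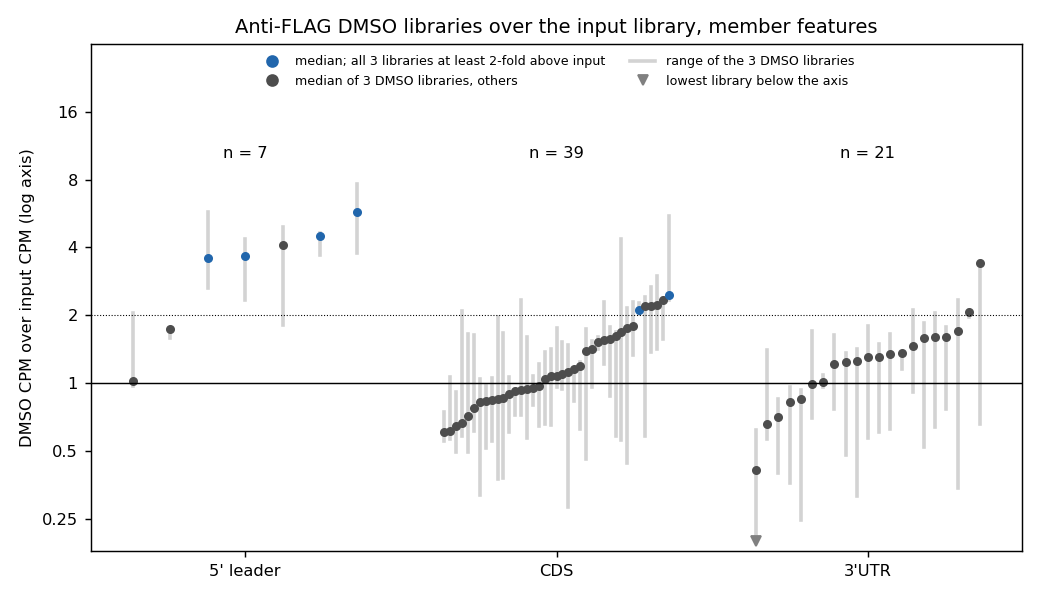
Ratio of DMSO CPM to input CPM on a log axis for member features with at least 10 input counts, in order of their median within each class; points are medians, grey bars the range of the 3 DMSO libraries, the dotted line marks 2-fold, the solid line 1, and blue points have all 3 libraries at least 2-fold above input. Leaders (median 3.66) stand above CDS (1.08) and 3'UTRs (1.30), and 4 of 7 leaders have all libraries past 2-fold.

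Purine runs were not more frequent at the 5′ ends of these genes. RefSeq start sites were found for 34 of the 41 genes. A run of at least 6 bases of A or G on the coding strand occurred in the first 50 transcribed bases of 11 of 34 (32.4%, exact 95% interval 17.4% to 50.5%), against 43.6% of 15843 genes. With runs of at least 5 the shares were 50% and 66.0%, and with at least 8 they were 14.7% and 18.3%. Over the whole GENCODE leaders of 29 tested members, the median purine content was 51.9% (51.2% over 6868 genes), the median longest run was 8 bases (8), and the median length was 199 bases (247).

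Within the 29 leaders, fold change for both compounds leaned up with purine content. Spearman's rho was 0.371 for purine content and 0.305 for the longest run, with 0.24 and 0.166 over 6868 genes. These are descriptions across genes that share libraries, depth and base composition, and genes are not independent replicates. UTP3 and UBTF, at 58.3% and 58.6% purines, had fold changes of 2.11 and 1.19. Leaders of similar or higher content had lower ones: TCOF1 had 0.20 at 69.3% purines, NOP10 0.59 at 58.7%, RRP1 0.41 at 58.1% and PES1 0.27 at 57.9%. TSR1, at 53.1% purines with a run of 15 bases in a leader of 1080 bases, lay lowest in fold change.

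**Figure D5:**
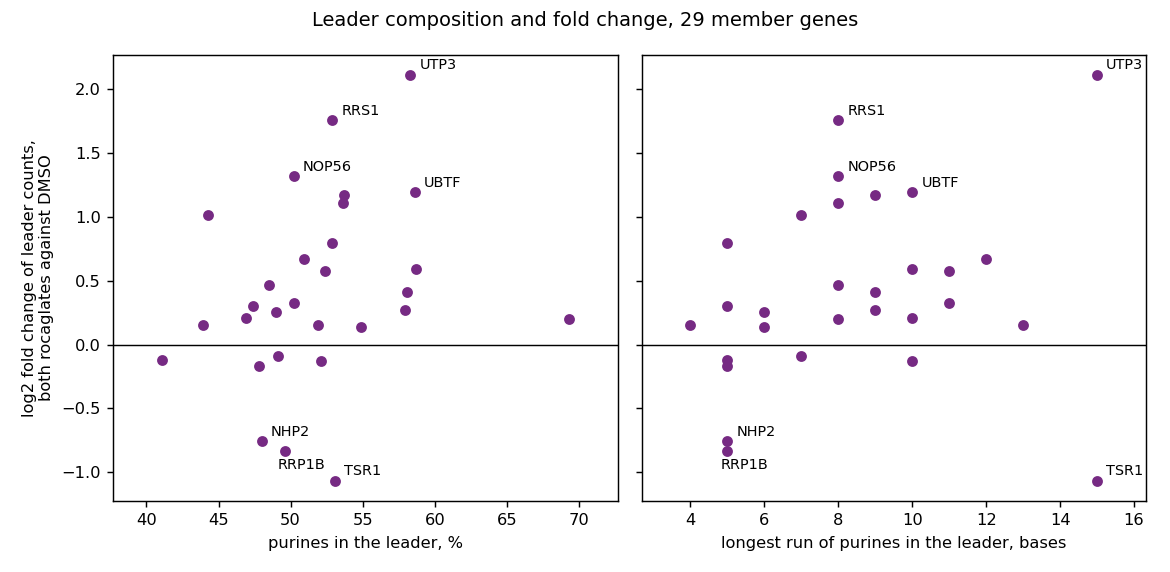
Log2 fold change of leader counts for both rocaglates against DMSO in 29 member genes, plotted on the purine content of the leader (left, %) and on its longest purine run (right, bases); each point is a gene. UTP3 and TSR1 share a longest run of 15 bases, in leaders of 199 and 1080 bases. They stand at opposite ends of the fold change axis, at 2.11 and -1.06.

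A wider list of 98 further ribosome biogenesis genes gave 44 tested leaders, 84 CDS and 48 3'UTRs. Its leader medians were 0.45 under silvestrol (0.40 over all leaders), 0.49 under CR-1-31-B (0.35) and 0.56 for both compounds (0.36), with 35 of 44 above 0 under silvestrol (79.5%, and 70.4% of all leaders). SHQ1, the chaperone that holds dyskerin before snoRNP assembly, was its only gene called without the block, 1 of 44 leaders under silvestrol and 1 of 44 for both compounds, where 0.857% and 1.39% of all leaders were. The SHQ1 leader had 53.0, 43.2 and 21.7 CPM under silvestrol, 39.7, 40.7 and 11.6 CPM under CR-1-31-B and 6.85, 0 and 3.43 CPM under DMSO. All drug libraries were above all DMSO libraries, and it rose by 3.47 ± 0.73 under silvestrol (adjusted p = 0.0413) and by 3.29 ± 0.69 for both compounds (adjusted p = 0.0331). Its DMSO values lie near the floor: the 0 allows up to 3.18 CPM (3 counts), and 3.43 CPM stands for 3 counts. Fits that leave out 1 library are not given for this list. With the block, SHQ1 under CR-1-31-B (3.09, adjusted p = 0.0180), NAF1, another H/ACA assembly factor, for both compounds (1.96, adjusted p = 0.0440) and TAF1D, a subunit of the RNA polymerase I selectivity factor, under CR-1-31-B (1.95, adjusted p = 0.0334) were called as well, all higher, where 3.59% of all leaders were called under CR-1-31-B and 5.38% for both compounds. No CDS, no 3'UTR and no lower leader of this list was called in those fits.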

How the data were processed

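Anti-FLAG eCLIP libraries were made from HEK 293T cells under silvestrol, CR-1-31-B or DMSO (3 each), with 1 input. The authors deposited counts of reads per gene and annotation class, 1 file per library; per the submitters' processing notes cutadapt and Bowtie 1.1 were used. Of the genome build, annotation, duplicate handling and use of strand in counting, none is given in the sources used here. The table has 7 classes; leader, CDS and 3'UTR were used, and 1 row with no gene name per file was left out. Counting error limits low features, and floors are 3 counts.

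All 24713 features past edgeR's expression filter in the 9 anti-FLAG libraries were fitted in 1 model with edgeR 4.0.16 (R 4.3.3; TMM, quasi-likelihood, Benjamini-Hochberg over all features, adjusted p under 0.05). CPM divide by TMM-scaled totals of the features tested; input CPM and DMSO-over-input ratios use all counts. Leader use within a gene was tested with edgeR, and, as a test added after seeing the data, as log2 leader-to-CDS ratios (0.5 added to each) in limma 3.58.1. Alternatives were DESeq2 1.42.0, limma voom, other scalings, filters and groups, and leaving out each library. The edgeR test without the block and both tests of leader use without it were tested on simulated data. Changes were placed only in leaders with more counts than the median member leader. The other fits were not tested in this way. Over all features, deviations from group means correlated at 0.102 to 0.263 in 9 same-numbered pairs of libraries and at -0.203 to 0.0163 in 18 other pairs; above 0.1 in each, the numbers were taken to pair the libraries. This pairing comes from the data, not from the labels. Deviations from a group mean cancel out within the group, so the other pairs are pulled down wherever same-numbered pairs correlate. The 18 other pairs are therefore not a separate check.

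The members and lists were chosen with earlier results of these data known. Named were member features called in any comparison; the 5 highest and 5 lowest leaders and 3 highest and 3 lowest CDS and 3'UTRs by fold change for both compounds; leaders whose drug and DMSO libraries did not overlap; the 2 highest and 2 lowest leaders between the compounds and features of each class over input; and the 2 best measured of each class. Other members were named after their values were seen. Exons of 23 members overlap another GENCODE gene.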

Additional observations from a re-analysis of the deposited data

How the results depend on the processing

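The count of member features called under CR-1-31-B against DMSO, 0 in the fit reported first, was 2 with leader, CDS and 3'UTR features alone, 2 without a low-count filter, 2 with only the groups compared, 2 by DESeq2 and 3 with the replicate block. For both compounds together it was 2 without the filter, 2 by DESeq2 and 2 with the replicate block. Leaving out 1 library at a time gave 0 to 2 calls under CR-1-31-B and 0 to 2 for both compounds; with the block the ranges were 0 to 3 and 0 to 4, and 0 to 2 under silvestrol. The 2 blocked silvestrol calls, the BRIX1 CDS (2.16, adjusted p = 0.0302) and the RRS1 CDS (1.63, adjusted p = 0.0149) by edgeR, came without silvestrol library 2. The leader-to-CDS ratio with the block called 1 member under silvestrol and 1 for both compounds; without 1 library at a time, alternatives added after seeing the data, it called 0 to 1 under silvestrol, 0 to 2 under CR-1-31-B and 0 to 1 for both compounds, and without the block 0 to 1, 0 and 0 to 1. The block changed no other member call. The cause of these differences was not tested.

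Against the input, scaling to leader, CDS and 3'UTR counts alone left 2 leaders and 0 CDS at least 2-fold above and put 1 3'UTR at least 2-fold below. Leaving out a DMSO library gave 2 to 5 CDS above (5 without DMSO library 2), and 0 to 1 3'UTR above and 0 to 1 below. Purine runs of at least 8 bases occurred in 14.7% of members.

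With 1 library left out at a time, the log2 fold change took both signs in 39 of 91 member features under silvestrol, 41 under CR-1-31-B, 40 for both compounds and 44 between the compounds. Among those named, under silvestrol these were the leaders of LTV1 (-0.65 to 0.20), NOP56 (-1.01 to 1.36), NCL (-0.43 to 0.27) and EBNA1BP2 (-1.27 to 0.10), the POLR1A 3'UTR (-0.36 to 0.13) and the FBL CDS (-0.44 to 0.00). Under CR-1-31-B they were the leaders of LTV1 (-0.51 to 0.05), NOP16 (-0.28 to 1.53) and NCL (-0.53 to 0.25), the FBL CDS (-0.03 to 0.22) and the 3'UTRs of RRS1 (-0.14 to 0.61), RRP1B (-0.30 to 0.19), POLR1A (-0.10 to 0.40) and NOP14 (-0.89 to 0.79, and -0.01 with upper-quartile factors). For both compounds they were the leaders of LTV1 (-0.44 to 0.13), NCL (-0.33 to 0.26) and EBNA1BP2 (-0.28 to 0.44, with -0.16 by limma voom and -0.00 with the replicate block), the FBL CDS (-0.19 to 0.04) and the POLR1A 3'UTR (-0.23 to 0.27, with -0.02 by upper-quartile factors and -0.00 without factors). In simulated counts 4 to 8 of 100 features changed 2-fold were recovered in the comparisons with DMSO, so such changes were mostly not detectable with these libraries.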
